A study of Mus musculus with 4 samples.

Results

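The histone cluster genes are the genes of the mouse histone loci 1 to 4, which encode the linker histone H1 and the core histones H2A, H2B, H3 and H4. They were taken as every probe whose gene symbol on the array begins with Hist1h, Hist2h, Hist3h or Hist4h. This gave 55 probes for 49 genes, out of 55681 probes and 24277 genes in all. By type there were 6 H1, 14 H2A, 12 H2B, 8 H3 and 9 H4 genes. All 49 were found in RefSeq (GRCm38.p6), where 36 lie on chromosome 13 (cluster 1), 9 on chromosome 3 (cluster 2), 3 on chromosome 11 (cluster 3) and 1 on chromosome 6 (cluster 4).

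Core histones form the spool on which DNA is wound, and H1 binds the linker DNA between spools. Most of these genes are replication-dependent: their messages accumulate while a cell copies its DNA and are degraded when S phase ends. Most of their transcripts end in a stem-loop bound by Slbp in place of a poly(A) tail, whereas replacement histones such as H2A.Z and H3.3 are made from ordinary polyadenylated messages outside S phase as well.

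RNA from freshly sorted adult mouse bone marrow cells was hybridised to 4 single-colour arrays, 1 for each of 4 groups. The WT LSK and SFRP5 LSK groups are lineage-negative cells with high c-kit and with Sca-1, a fraction that holds stem cells and multipotent progenitors. The WT CLP and SFRP5 CLP groups come from a gate enriched for common lymphoid progenitors, with low c-kit, low Sca-1 and IL7Rα. WT samples came from littermates of the SFRP5-transgenic mice, and the series set out to find genes that respond to SFRP5, a secreted protein that opposes Wnt signals. The sources used here do not give the transgene's promoter, the mice per sample or their sex.

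Every value in this account is the log2 of a probe's signal relative to the 75th percentile of its own array, or a difference of such values. A probe counts as measured when the scanner software flagged it well above background. With 1 array per group no difference has a replicate check and none was tested between groups, so "higher" and "lower" describe these 4 arrays. The only spread available, between spots of the same probe within an array, had a median SD of 0.0585 to 0.0705 at or above the 75th percentile. It was 0.118 to 0.141 up to 16-fold below that level and 0.367 to 0.486 further down. Each histone probe was printed once per array, so this spread comes from other probes and covers neither cells, mice nor amplification.

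The labels of the sorts were checked on Kit, Ly6a (Sca-1), Flt3 and Il7r. Il7r was higher in CLP than in LSK in both genotypes, by 3.03 in WT and 2.24 in SFRP5. Kit and Ly6a, which the CLP gate takes at low levels, were lower in CLP. Flt3, which is in neither gate as described, was lower in CLP too, at -2.71 in WT and -2.78 in SFRP5. It therefore did not mark the CLP arrays. Markers of several other lineages were also much brighter on the CLP arrays, as given beside the sort comparison. The mouse Sfrp5 probe was at -0.23 (WT) and -0.31 (SFRP5) in LSK and -0.02 (WT) and -0.00 (SFRP5) in CLP and so did not mark the transgenic arrays. Xist was well above background on both SFRP5 arrays and on neither WT array. Genotype therefore cannot be told apart here from the sex of the donors, for the histone genes or any other gene.

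The start regions of the 6 H1 genes are shown first, because the H1 genes range from strong differences between the sorts to almost none. Each line gives the bases up to the one before the annotated start, 5′ to 3′ on the gene's own strand, from RefSeq (GRCm38.p6). Capitals mark CCAAT (read ATTGG from the other strand), TATAA (read TTATA) and AAACACA (read TGTGTTT). Matches to TATAA on opposite strands can overlap, as they do in Hist1h1b.
Hist1h1a (H1f1), chr13:23763543-23763667, + strand: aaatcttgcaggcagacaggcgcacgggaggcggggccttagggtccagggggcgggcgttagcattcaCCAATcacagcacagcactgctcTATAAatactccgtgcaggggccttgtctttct
Hist1h1b (H1f5), chr13:21780626-21780750, - strand: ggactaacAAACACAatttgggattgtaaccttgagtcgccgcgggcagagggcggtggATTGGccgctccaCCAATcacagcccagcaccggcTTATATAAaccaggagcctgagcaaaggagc
Hist1h1c (H1f2), chr13:23738682-23738806, + strand: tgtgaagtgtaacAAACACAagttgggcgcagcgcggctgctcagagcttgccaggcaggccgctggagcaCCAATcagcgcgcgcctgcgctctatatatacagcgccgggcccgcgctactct
Hist1h1d (H1f3), chr13:23554907-23555031, + strand: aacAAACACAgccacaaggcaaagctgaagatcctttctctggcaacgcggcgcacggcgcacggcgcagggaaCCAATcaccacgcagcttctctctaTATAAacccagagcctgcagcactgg
Hist1h1e (H1f4), chr13:23622559-23622683, - strand: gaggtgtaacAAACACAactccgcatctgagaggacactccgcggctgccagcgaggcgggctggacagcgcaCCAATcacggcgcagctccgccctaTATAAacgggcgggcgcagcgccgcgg
Hist1h1t (H1f6), chr13:23695686-23695810, + strand: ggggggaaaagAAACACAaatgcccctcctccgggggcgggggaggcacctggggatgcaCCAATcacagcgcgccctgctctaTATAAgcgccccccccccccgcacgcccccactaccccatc

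CCAAT, the letters of the CCAAT box, stood at bases -51 to -65 in all 6, counted to the first base of the match and leaving out further copies. AAACACA, the letters of the element known as the H1 box, stood at -112 to -122 in 5 of 6. It was not found by these letters in Hist1h1a. Over the whole family, 43 of the 49 genes had start regions in the table, in 44 windows of 300 bases (250 before the start and 50 after it). CCAAT on either strand was in 38 of the 44 (86.4%) against 37.4% of all 32851 windows, with 2 of 8 H4 windows and every window of the other 4 types. TATAA was in 35 (79.5%) against 24.9% of all windows, but in 2 of 6 H3 windows. The octamer ATTTGCAT, or ATGCAAAT on the other strand, was in 13 (29.5%) against 1.74%, all of them H2A (7 of 14) or H2B (6 of 10). These matches describe letters in a window and do not show that a factor binds there.

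The histone cluster genes were brighter in CLP than in LSK in WT mice and differed far less between the sorts in SFRP5 mice. Over all 49 genes the median lay at 1.70 (WT) and 2.59 (SFRP5) in LSK and 3.63 (WT) and 2.62 (SFRP5) in CLP. The SFRP5 arrays thus lay close together, between a low WT LSK array and a high WT CLP array. In number, 43 genes were well above background on all 4 arrays, 1 on 3, 1 on 2, 2 on 1 and 2 on none. The detected genes numbered 43 (WT) and 45 (SFRP5) in LSK and 46 (WT) and 45 (SFRP5) in CLP, so detection varied little while signal did. No histone spot was saturated or had an outlier flag.

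**Figure D1:**
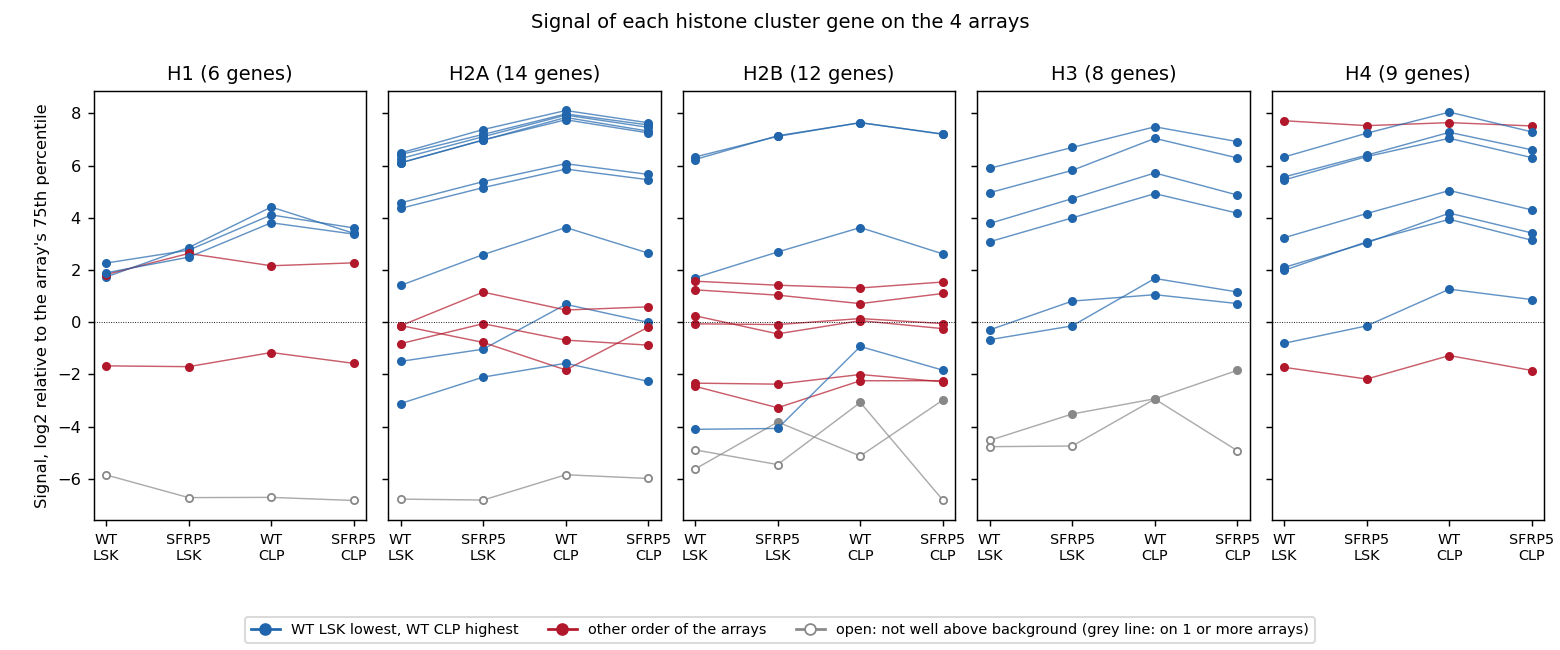
Signal of each of the 49 histone cluster genes on the 4 arrays, log2-scaled against its array's 75th percentile, in 1 panel per histone type; each line joins the values of 1 gene, and the arrays have no order in time. The 30 blue genes have their lowest value in WT LSK and their highest in WT CLP, the 13 red genes have another order, and grey genes were not well above background on 1 or more arrays (open points).

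Between the sorts in WT, 38 of the 43 genes measured on both arrays were higher in CLP, with a median difference of 1.60 (50.6% of all 16037 genes measured were higher). Of the 43, 30 were higher by 2-fold or more and 1 was lower by as much, while 17.8% of all genes were higher and 14.3% lower to that extent. The median over all genes was 0.02. With the authors' deposited signals these shares were 9.61% and 26.5%, under normexp correction 12.6% and 6.48%, and the histone genes numbered 27 and 1 and then 29 and 1. Among the 8654 genes whose brighter array reached its 75th percentile, a class nearer to the histone genes in signal, the median was 0.32 and 25.6% were higher by 2-fold or more. Among the 43, the highest differences were 3.17 for the pseudogene Hist3h2bb-ps, 2.68 for Hist1h1a and 2.35 for Hist1h3g. The lowest were -1.70 for Hist1h2ac, -0.53 for Hist1h2bc and -0.26 for Hist1h2bg. Under normexp correction Hist3h2bb-ps was at 1.46, below Hist1h1a at 2.55 and Hist1h3g at 1.99.

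Between the sorts in SFRP5, 37 of 45 genes were higher in CLP (51.5% of all genes were), with a median difference of 0.20. It lay between 0.02 with the authors' deposited signals and 0.22 over the other settings tried. The median of all genes was -0.16 with the authors' signals and 0.02 as scaled here. By 2-fold or more 6 genes were higher in CLP and none lower, against 11.5% and 11% of all 15728 genes measured. Among the 45, the largest values were 2.23 for Hist3h2bb-ps, 1.67 for Hist2h3c2-ps, which the array names as a pseudogene, and 1.30 for Hist1h3g. Hist3h2a, at -0.82, Hist2h2aa1, at -0.57, and Hist1h1c, at -0.36, had the lowest. Under normexp background correction 1 gene was higher and none lower, beside 6.85% and 6.44% of all genes. With the authors' deposited signals 3 were higher and 1 lower, beside 8.49% and 14.1% of all genes.

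**Figure D2:**
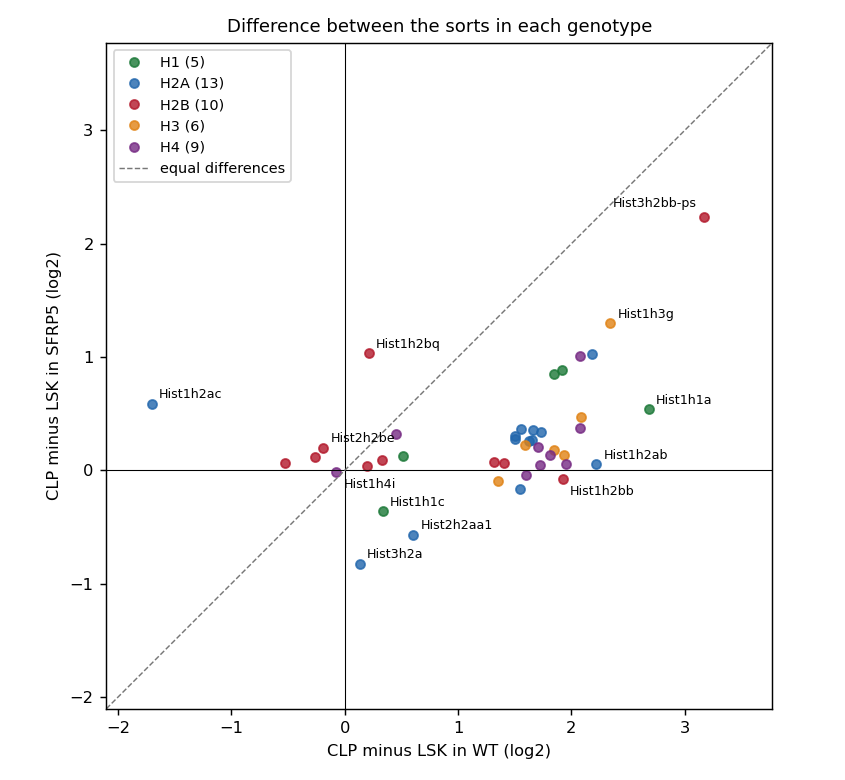
Log2 difference between CLP and LSK in WT (horizontal) and in SFRP5 (vertical) for the 43 histone cluster genes well above background on all 4 arrays, coloured by type; the dashed line marks equal differences. Most genes sit well to the right of 0 and near 0 vertically, and Hist1h2ac, at -1.70 and 0.59, lies apart.

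The difference CLP minus LSK was lower in SFRP5 than in WT for 37 of the 43 genes measured on all 4 arrays (86%). The same held for 52.8% of all 15199 genes measured on 4 arrays and for 58.9% of the brighter ones. Its change, SFRP5 minus WT, had a median of -1.23 over the histone genes and ran from -2.17 for Hist1h2ab to 2.29 for Hist1h2ac. Over all genes that median was -0.05. It was -1.64 for H4, -1.53 for H3, -1.23 for H2A, -0.99 for H1 and -0.20 for H2B. Over the other ways of processing the signal, the change for the histone genes kept its sign and lay between -1.23 and -0.93. The change was not tested, since no group has a replicate.

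Markers of other lineages moved with the sorts as well. The summed level of 8 erythroid genes, on a linear scale where 1 is the array's 75th percentile, was 21.8 (WT) and 20.3 (SFRP5) in LSK and 569 (WT) and 321 (SFRP5) in CLP. For 5 mast cell and basophil genes it was 1.29, 1.29, 52.5 and 36.4, for 6 neutrophil genes 29.2, 52.8, 205 and 234, and for 5 B-lineage genes 3.55, 5.46, 70.9 and 84.3. All 8 erythroid, all 5 mast cell and basophil and all 5 B-lineage genes were well above background on both CLP arrays. In LSK these were 7, 2 to 3 and 4. The erythroid and the mast cell and basophil sums were lower in SFRP5 CLP than in WT CLP, as the histone genes were, and the neutrophil and B-lineage sums were higher, although the median difference of the neutrophil genes there was -0.40. Monocyte genes summed to 25 (WT) and 26.7 (SFRP5) in LSK and 32.7 (WT) and 29.7 (SFRP5) in CLP. Of these Csf1r, the brightest, differed between the sorts by -0.09 in WT and -0.15 in SFRP5. F13a1 differed by 3.93 and 1.43, and Ccr2 was well above background on every array but WT LSK. T-lineage genes summed to 5.54, 4.18, 2.86 and 2.70 in the same order of arrays, and megakaryocyte genes to 1.40, 1.73, 5.18 and 5.24. The part of these lineage genes in the histone differences was not tested. In such bulk samples, fewer cells of a type and less RNA per cell cannot be told apart.

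Set against genotype, the same values read as opposite differences in the 2 sorts. In LSK, 33 of 43 genes were higher in SFRP5 than in WT (51.3% of all genes were), with a median of 0.81 against 0.02 for all 16146 genes measured and 0.18 for the brighter ones. By 2-fold or more 6 genes were higher (6.58% of all genes were) and none lower (7.18% of all genes were). Those shares of all genes were 4.8% and 9.56% with the authors' deposited signals, 2.9% and 1.72% under normexp correction and 8.28% and 4.79% under cyclic loess, with 3, 4 and 4 histone genes higher and none lower. In CLP, 37 of 44 genes were lower in SFRP5 (53.4% of all genes were), with a median of -0.47 against -0.04 for all 15959 genes. By 2-fold or more 2 genes were higher and 2 lower, against 4.26% and 4.3% of all genes. Under normexp correction 1 gene was higher and none lower, beside 1.06% and 0.979% of all genes. Under quantile scaling, cyclic loess and the authors' deposited signals the counts were 2 and none. Of all genes 4.13%, 4.54% and 5.27% were higher under these settings and 3.85%, 3.98% and 3.5% lower. Both genotype comparisons use the same 4 arrays as the sort comparisons and add no independent values. Since Xist divided the arrays by genotype, a difference in donor sex cannot be told apart from genotype in either of them.

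Among genes well above background on both arrays, highest in SFRP5 LSK over WT LSK were Hist2h2aa1 by 1.29, Hist1h2ab by 1.18 and Hist1h1a by 1.13. Lowest there were Hist1h2bq at -0.82, Hist2h2be at -0.69 and Hist1h2ac at -0.65. In CLP, among the genes measured on both arrays, the highest were Hist1h2ac at 1.64, Hist2h3c2-ps at 1.09 and Hist1h2bc at 0.39. The lowest there were Hist1h2bb at -1.01, Hist1h1a at -1.01 and Hist1h2ab at -0.98. Hist1h1a and Hist1h2ab were thus among the highest in one sort and the lowest in the other, and Hist1h2ac was so in the opposite direction. Outside these rankings, Hist1h2bp was brighter in SFRP5 by 3.49-fold in LSK and 4.43-fold in CLP, set against WT signals that failed the flag. Hist3h2ba and Hist1h3a were dimmer in SFRP5 CLP, where they failed the flag, than in WT CLP, by 9.36-fold and 3.96-fold. In such a ratio the dim array counts at the gene's own signal or at the lowest signal that passed the flag there, whichever was higher. It is not a lower bound, since signals above that lowest one also failed the flag.

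**Figure D3:**
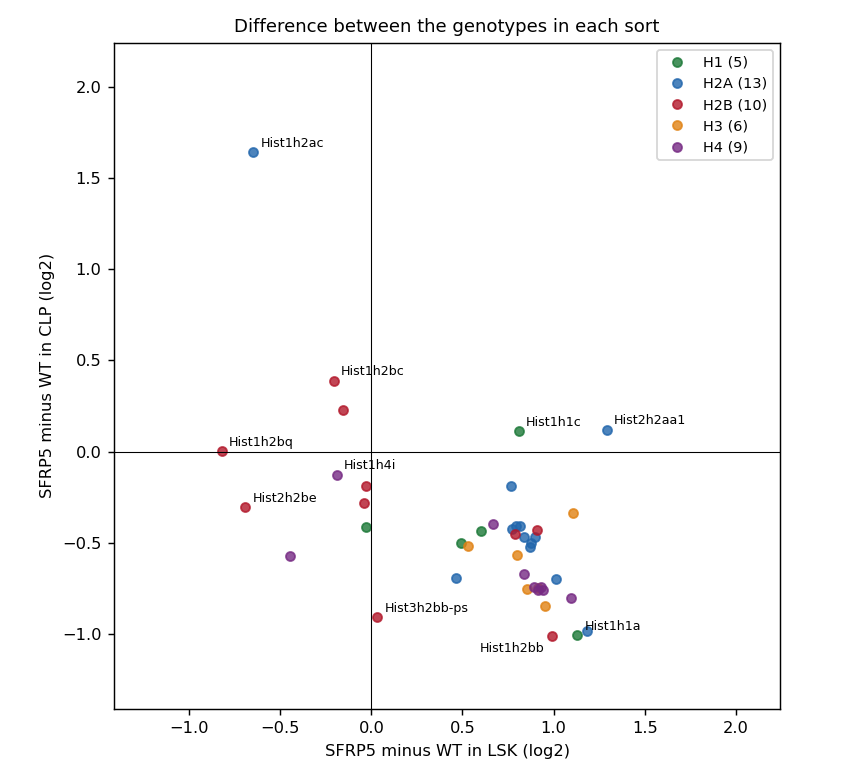
Log2 difference between SFRP5 and WT in LSK (horizontal) and in CLP (vertical) for the 43 histone cluster genes well above background on all 4 arrays, coloured by type. The main group of genes lies to the right of 0 and below 0, higher in SFRP5 LSK and lower in SFRP5 CLP, and Hist1h2ac lies to the left of 0 and above 0.

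Counted gene by gene, WT LSK was the lowest and WT CLP the highest of the 4 arrays for 30 of the 43 genes (69.8%), an order that 17.9% of all genes and 24.7% of the brighter genes had. The full rising order WT LSK, SFRP5 LSK, SFRP5 CLP, WT CLP held for 26 (60.5%), against 14% and 20.4%. Higher in SFRP5 in LSK and lower in SFRP5 in CLP were 31 (72.1%), against 29.2% and 34.3%. These orders were chosen after the values were seen and are a description. Some histone probes may read shared transcripts, so the 43 genes are not 43 independent observations. By type the first order held for 6 of 6 H3, 7 of 9 H4, 10 of 13 H2A, 3 of 5 H1 and 4 of 10 H2B genes. The 13 genes with another order were Hist1h1c, Hist1h1t, Hist1h2ac, Hist2h2aa1, Hist3h2a, Hist1h4h, Hist1h4i and 6 H2B genes (Hist1h2bc, Hist1h2be, Hist1h2bg, Hist1h2bq, Hist2h2bb and Hist2h2be).

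H1 is the linker histone, and its genes did not move as one. Hist1h1a was at 1.73 (WT) and 2.86 (SFRP5) in LSK and 4.42 (WT) and 3.41 (SFRP5) in CLP. Its WT CLP signal was 6.42-fold its WT LSK signal, and its SFRP5 CLP signal 1.46-fold its SFRP5 LSK signal. Hist1h1b was at 2.27, 2.76, 4.11 and 3.61 in that order of arrays, used wherever 4 values follow a gene, and Hist1h1e at 1.89, 2.49, 3.81 and 3.38. These 3 genes had differences between the sorts of 2.68, 1.85 and 1.92 in WT and of 0.54, 0.85 and 0.88 in SFRP5, so Hist1h1b and Hist1h1e kept more of the difference than Hist1h1a. Hist1h1c, whose message can also be polyadenylated, was at 1.83, 2.64, 2.17 and 2.28. It was highest in SFRP5 LSK and differed between the sorts by 0.34 in WT and -0.36 in SFRP5. Hist1h1t, the testis-specific H1, lay below the 75th percentile throughout, at -1.67, -1.70, -1.16 and -1.57. Hist1h1d was not well above background on any array. The start regions of Hist1h1a, Hist1h1b and Hist1h1e hold CCAAT and TATAA, as does that of the dim Hist1h1t. That of Hist1h1c holds CCAAT and the letters tatatata, which the search for TATAA does not match.

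H2A genes encode a core histone that pairs with H2B, and 10 of the 13 measured were at least 2-fold higher in WT CLP than in WT LSK. Of all genes 17.8% were. Hist1h2ah was at 6.49 (WT) and 7.38 (SFRP5) in LSK and 8.11 (WT) and 7.64 (SFRP5) in CLP. Hist1h2ak was at 6.43, 7.20, 7.98 and 7.56, and Hist2h2ac of cluster 2 at 6.27, 7.11, 7.94 and 7.47. Their profiles over the 4 arrays were nearly the same, and so were those of Hist1h2af, Hist1h2ag, Hist1h2an and Hist2h2aa2. Over these 7 genes the difference between the sorts ran from 1.5 to 1.74 in WT and from 0.26 to 0.36 in SFRP5. H2A coding sequences are nearly identical between copies. Probe sequences were not used here, so these 7 probes may read a shared pool of transcripts and are not 7 independent observations. The second probe of Hist1h2ak gave 1.70 in WT and 0.35 in SFRP5.

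The other H2A genes were less uniform. Hist1h2ab was at 1.41 (WT) and 2.59 (SFRP5) in LSK and 3.63 (WT) and 2.65 (SFRP5) in CLP, a difference between the sorts of 2.22 in WT and 0.05 in SFRP5. Hist1h2ac ran against the rest: it was at -0.12, -0.77, -1.83 and -0.18, and its WT CLP signal was the lowest of the 4. It was 3.25-fold lower in WT CLP than in WT LSK and 3.12-fold higher in SFRP5 CLP than in WT CLP. Hist2h2aa1 was at -0.14, 1.16, 0.47 and 0.59 and Hist3h2a at -0.82, -0.05, -0.68 and -0.88, both highest in SFRP5 LSK. Hist2h2ab was at -3.11, -2.10, -1.57 and -2.27, a level at which the spread between spots is wider. Hist1h2aa, which encodes a testis H2A, was at -1.5, -1.03, 0.69 and -0.01. Hist1h2ae was not well above background on any array.

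H2B, the partner of H2A in the dimer, was the type with the smallest median difference between the sorts, as scaled here. That median was 0.27 in WT over 10 genes and 0.09 in SFRP5 over 11, and with the authors' deposited signals it turned to -0.14 and -0.10. Under that setting the median of all genes was lower still, at -0.40 in WT and -0.16 in SFRP5. The genes showed 2 patterns. Hist1h2bm was at 6.33 (WT) and 7.12 (SFRP5) in LSK and 7.65 (WT) and 7.20 (SFRP5) in CLP, and Hist1h2bb at 1.70, 2.69, 3.63 and 2.62. Both showed the order of the H2A and H4 genes. Hist1h2ba, the testis H2B, was at 6.24, 7.15, 7.65 and 7.21, a profile close to that of Hist1h2bm. Whether its probe also reads somatic H2B messages was not tested.

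Other H2B genes differed little between the sorts. Hist1h2bg was at 1.57 (WT) and 1.42 (SFRP5) in LSK and 1.32 (WT) and 1.54 (SFRP5) in CLP, Hist1h2be at -0.06, -0.09, 0.14 and -0.05, and Hist1h2bc at 1.24, 1.04, 0.72 and 1.1. Hist2h2be was at 0.25, -0.44, 0.06 and -0.24 and Hist2h2bb at -2.33, -2.37, -2.00 and -2.28. Their differences between the sorts ran from -0.53 to 0.33 in WT and from 0.04 to 0.20 in SFRP5, against medians of 1.60 and 0.20 over all histone genes. Hist1h2bq was at -2.45, -3.27, -2.24 and -2.24, lowest in SFRP5 LSK. It differed between the sorts by 0.21 in WT and by 1.04 in SFRP5, past 2-fold.

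Low signals were found in 3 further H2B genes. The pseudogene Hist3h2bb-ps was at -4.10 (WT) and -4.07 (SFRP5) in LSK and -0.93 (WT) and -1.84 (SFRP5) in CLP, and its LSK values lie where spots of a probe scatter most. Hist1h2bp was well above background only on the 2 SFRP5 arrays, at -3.82 in LSK and -2.98 in CLP. Hist3h2ba was well above background only in WT CLP, at -3.07. By the same rough ratio that was 3.52-fold over WT LSK and 9.36-fold over SFRP5 CLP.

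H3, which carries most of the well-studied tail modifications, was the type in which WT LSK was lowest and WT CLP highest for every gene measured on 4 arrays. Hist1h3d was at 5.90 (WT) and 6.70 (SFRP5) in LSK and 7.49 (WT) and 6.92 (SFRP5) in CLP, Hist2h3c1 at 4.96, 5.82, 7.05 and 6.30, and Hist1h3c at 3.79, 4.74, 5.72 and 4.87. Hist1h3f was at 3.08, 4.0, 4.93 and 4.18. These 4 genes were 3.01-fold to 4.24-fold higher in WT CLP than in WT LSK and 1.1-fold to 1.39-fold higher in SFRP5 CLP than in SFRP5 LSK. Whether the H3 probes read shared transcripts was not tested. Hist1h3i, at -0.29, 0.81, 1.06 and 0.72, was the one with SFRP5 LSK above SFRP5 CLP and differed between the sorts by 1.35 in WT and -0.09 in SFRP5. Hist1h3g kept the most, with values of -0.67, -0.14, 1.68 and 1.16 and differences of 2.35 and 1.30. Hist2h3c2-ps was not well above background in WT LSK and was at -2.93 in WT CLP, with -3.51 in LSK and -1.84 in CLP of SFRP5. Against its WT LSK signal it was 3.02-fold higher in WT CLP and 2.02-fold higher in SFRP5 LSK, and neither ratio is a lower bound. Hist1h3a was well above background only in WT CLP, 3.54-fold over its WT LSK signal and 3.96-fold over its SFRP5 CLP signal, both of which failed the flag.

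H4 genes encode the same core histone from many copies, and 7 of 9 were at least 2-fold higher in WT CLP than in WT LSK. Of all genes 17.8% were. Hist1h4k was at 6.33 (WT) and 7.24 (SFRP5) in LSK and 8.05 (WT) and 7.29 (SFRP5) in CLP, and Hist1h4d at 5.57, 6.40, 7.28 and 6.61. Hist2h4 was at 5.45, 6.35, 7.05 and 6.31, and Hist4h4, alone in cluster 4, at 3.24, 4.17, 5.05 and 4.30. On both SFRP5 arrays these 4 genes had nearly the same signal: they differed between the sorts by 0.05, 0.20, -0.04 and 0.14 in that order. As for H2A, the H4 probes may read shared transcripts, so the H4 genes cannot be taken as independent observations. Hist1h4c was at 2.10, 3.05, 4.18 and 3.42 and Hist1h4j at 1.99, 3.09, 3.94 and 3.14. Hist1h4m, at -0.80, -0.14, 1.27 and 0.87, kept a difference of 1.01 in SFRP5. The median over the 9 H4 genes in SFRP5 was 0.14, and it turned to -0.03, -0.07 and -0.05 under quantile scaling, cyclic loess and the authors' deposited signals. The median of all genes was -0.01, -0.02 and -0.16 under these settings.

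The probes of Hist1h4i disagreed. Its brightest probe was at 7.72 (WT) and 7.53 (SFRP5) in LSK and 7.65 (WT) and 7.52 (SFRP5) in CLP, a range of 0.20 over the arrays. A second probe was at 0.89, 1.64, 2.76 and 2.09, the order of most other H4 genes. The remaining probe, at -1.12, -0.77, -0.67 and -0.95, also had WT LSK lowest and WT CLP highest. Hist1h4i thus counts among the genes with another order by its brightest probe only. The brightest probe gave the highest intensity of any histone spot in WT LSK, 58397, without a saturation flag. Whether its flat profile comes from the probe was not tested. Hist1h4h was at -1.73, -2.17, -1.28 and -1.85, a range of 0.90, and was lower in SFRP5 in both sorts, at -0.45 in LSK and -0.57 in CLP. The second probes of Hist1h4k, at 1.76, and Hist2h4, at 1.97, stood beside differences between the sorts in WT of 1.72 and 1.60 by their first probes, and that of Hist4h4 was dim and disagreed with the first. It was above background on 2 arrays only, at -4.03, -4.51, -4.66 and -3.11, highest in SFRP5 CLP where the first probe was highest in WT CLP.

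Genes that differed between the sorts and genes that did not lay interleaved along cluster 1. In WT the median difference between the sorts was 1.61 over 32 genes of cluster 1 and 1.57 over 8 of cluster 2, and in SFRP5 it was 0.22 over 33 and 0.20 over 9. Hist4h4, the single gene of cluster 4, had 1.81 and 0.14. In 6 places an H2A and an H2B gene lie close enough in RefSeq for a start region to overlap the neighbouring gene or its start region. Their strands were not compared. Of these pairs 4 were measured on both WT arrays. Hist1h2ac and Hist1h2bc were the pair whose members were both lower in WT CLP, at -1.70 and -0.53. The members of 2 pairs differed: Hist2h2ac was 1.67 higher in WT CLP while its neighbour Hist2h2be was at -0.19, and Hist3h2bb-ps was 3.17 higher while Hist3h2a was at 0.14. Hist1h2aa and Hist1h2ba were both higher, by 2.19 and 1.41.

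**Figure D4:**
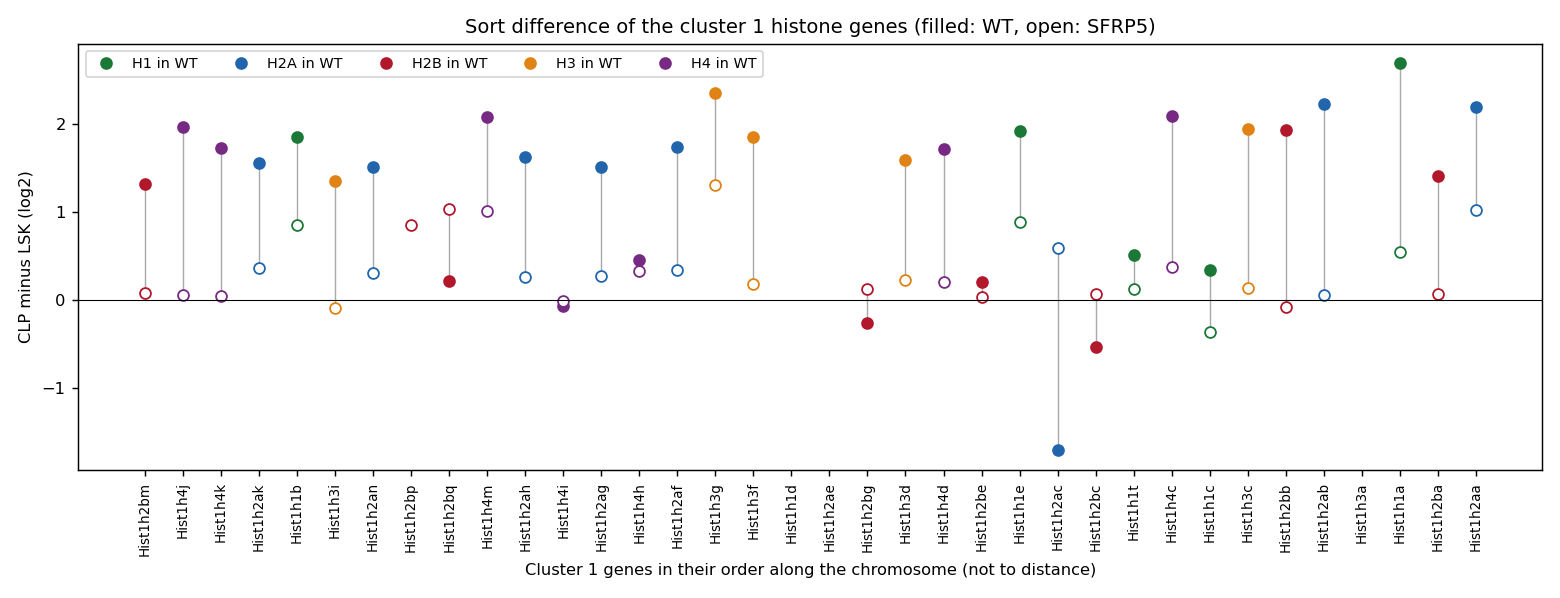
Log2 difference between CLP and LSK for the cluster 1 histone genes in their order along chromosome 13 (order only, not distance), with WT as filled and SFRP5 as open points, coloured by type; genes with no point were not well above background on both arrays. Filled points above 1 occur along the whole cluster, and most open points lie near 0, with Hist1h2ac at -1.70 in WT.

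The start regions of Hist1h2ac and Hist2h2ac are shown because these H2A genes differed from each other and each lies beside an H2B gene that was flat or lower. Each line gives the 180 bases before the annotated start from RefSeq (GRCm38.p6), with the same motifs and the octamer ATTTGCAT or ATGCAAAT in capitals.
Hist1h2ac (H2ac6), chr13:23683960-23684139, - strand: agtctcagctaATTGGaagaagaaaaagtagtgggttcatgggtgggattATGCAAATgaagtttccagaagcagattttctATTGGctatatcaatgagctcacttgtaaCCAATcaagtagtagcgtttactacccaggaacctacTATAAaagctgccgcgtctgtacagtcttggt
Hist2h2ac (H2ac20), chr3:96220881-96221060, - strand: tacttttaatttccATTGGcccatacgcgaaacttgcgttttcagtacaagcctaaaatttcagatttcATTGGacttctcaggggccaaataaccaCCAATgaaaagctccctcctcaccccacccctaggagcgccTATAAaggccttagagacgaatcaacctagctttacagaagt

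Both hold 3 CCAAT letters and 1 TATAA. The octamer stood at -130 in Hist1h2ac on the opposite strand and at -200, before the stretch printed, in Hist2h2ac. By these letters the regions of the 2 genes are alike, although their signals over the 4 arrays are not.

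Genes that serve the histone genes or are used with them gave a frame for these values. The lists of histone mRNA processing, replacement histones, chaperones, S phase and mitosis were chosen with earlier results of these data known. Of 16 processing genes measured in WT, 3 were at least 2-fold higher in CLP and 1 lower, beside 17.8% and 14.3% of all genes. Their median was 0.35. Slbp, which binds the stem-loop, was at 2.62 (WT) and 2.57 (SFRP5) in LSK and 3.76 (WT) and 3.37 (SFRP5) in CLP. Npat, the coactivator of histone transcription, was at -1.43, -1.87, -2.94 and -1.66, lowest where the histone genes were highest. Casp8ap2 (Flash), a processing factor, was at 1.05, 1.09, 1.46 and 1.72, and Lsm10 of the U7 particle at 0.59, 0.74, 1.0 and 0.40. Lsm11, its partner, was not well above background on any array. Ncbp1, a cap-binding protein, was higher in CLP by 1.21 in WT and 1.26 in SFRP5. Coil, the coilin of Cajal bodies, was 1.47 higher in SFRP5 LSK than in WT LSK.

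Replacement histones, 11 measured, had a median difference between the sorts of 0.77 in WT and 0.39 in SFRP5, with 5 at least 2-fold higher in WT CLP and none lower. In SFRP5 1 was at least 2-fold higher and 4 lower. Of all genes 17.8% were higher and 14.3% lower to that extent in WT, and 11.5% and 11% in SFRP5. H2aj was at 6.26 (WT) and 7.13 (SFRP5) in LSK and 8.03 (WT) and 7.51 (SFRP5) in CLP, a profile close to the bright H2A cluster genes, and whether its probe reads them was not tested. H2ax, the H2A that is phosphorylated at DNA breaks, was at 2.30, 3.36, 3.60 and 3.76, and Cenpa, the H3 of centromeres, at 0.91, 0.84, 2.62 and 2.16. Macroh2a1 was at 3.59, 4.33, 3.04 and 3.02 and Macroh2a2 at 0.65, 1.81, 0.28 and 0.17, both highest in SFRP5 LSK. H1f0, the linker histone of resting cells, was at -1.78, -3.35, -2.59 and -4.36, lower in SFRP5 in both sorts. Its SFRP5 CLP value lies where spots of a probe scatter most. H1f10, a linker histone outside the clusters, was lower in SFRP5 CLP than in SFRP5 LSK, at -1.55.

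Chaperones carry histones to DNA, and 10 of 24 were at least 2-fold higher in WT CLP than in WT LSK. The median was 0.94, and 17.8% of all genes were higher to that extent. In SFRP5 4 chaperones were higher by 2-fold or more (11.5% of all genes were), with a median of 0.49. Asf1b, the chaperone of dividing cells, was at 0.21 (WT) and 2.07 (SFRP5) in LSK and 3.62 (WT) and 3.60 (SFRP5) in CLP, and Nasp at 2.85, 2.91, 4.44 and 4.50. Their differences between the genotypes in CLP were -0.02 and 0.07, beside the median of -0.47 of the histone genes. Asf1a was at -1.45, -2.49, -2.22 and -2.06, lowest in SFRP5 LSK. Hira, which deposits H3.3, was at -3.47, -3.34, -1.35 and -2.29. Atrx was lower in WT CLP than in WT LSK, at -0.96, and Ipo4 lower in SFRP5 CLP than in SFRP5 LSK, at -0.86. Chaf1b of the replication-coupled chaperone CAF-1 was lower in SFRP5 CLP than in WT CLP, at -0.67.

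S-phase genes were near the histone genes in WT and had a larger median difference between the sorts in SFRP5; the contrast between the lists was not tested. Of 31 measured in WT, 23 were at least 2-fold higher in CLP and none lower, beside 17.8% and 14.3% of all genes. Their median was 1.42, close to the 1.60 of the histone genes. In SFRP5 15 of 32 were higher to that extent (11.5% of all genes were), with a median of 0.92 against 0.20. Over the 31 measured on 4 arrays, the change in the difference had a median of -0.50, against -1.23 for the histone genes. It was -0.65 for 17 mitosis genes and -0.01 for 16 processing genes. Over the other ways of processing the signal it lay between -0.53 and -0.15 for S phase and between -0.67 and -0.42 for mitosis. Gins2 of the replicative helicase was at 0.54 (WT) and 1.90 (SFRP5) in LSK and 3.65 (WT) and 3.09 (SFRP5) in CLP. Ccne1, the cyclin of S-phase entry, was at -0.63, -2.11, 3.04 and 2.19, so its difference between the sorts was larger in SFRP5 (4.31) than in WT (3.66). E2f2 had 3.81 and 3.14. Tyms, which makes thymidylate, was at -2.92 in SFRP5 LSK and -0.51 in WT LSK, a difference of -2.42, and Pole was 0.99 higher there. Dnmt1, which copies DNA methylation after replication, differed between the sorts by -0.08 in SFRP5.

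Mitosis genes, 18 measured in WT, had a median difference between the sorts of 1.62. By 2-fold or more 16 were higher in CLP and none lower, beside 17.8% and 14.3% of all genes. In SFRP5 9 of 17 were higher to that extent (11.5% of all genes were), with a median of 1.0. Ube2c, which marks cyclins for destruction, was at 2.68 (WT) and 3.65 (SFRP5) in LSK and 5.48 (WT) and 4.72 (SFRP5) in CLP. Plk1, a mitotic kinase, was at 0.57, 1.44, 2.99 and 2.66, and Ccnb1, the mitotic cyclin, at 0.97, 1.1, 3.18 and 2.87. Bub1b of the spindle checkpoint was nearly flat, at 1.69, 1.61, 2.16 and 1.74. The order of lowest WT LSK and highest WT CLP held for 20 of 31 S-phase and 11 of 17 mitosis genes, beside 30 of 43 histone genes, and for 2 of 16 processing genes. Of all genes 17.9% had this order.

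**Figure D5:**
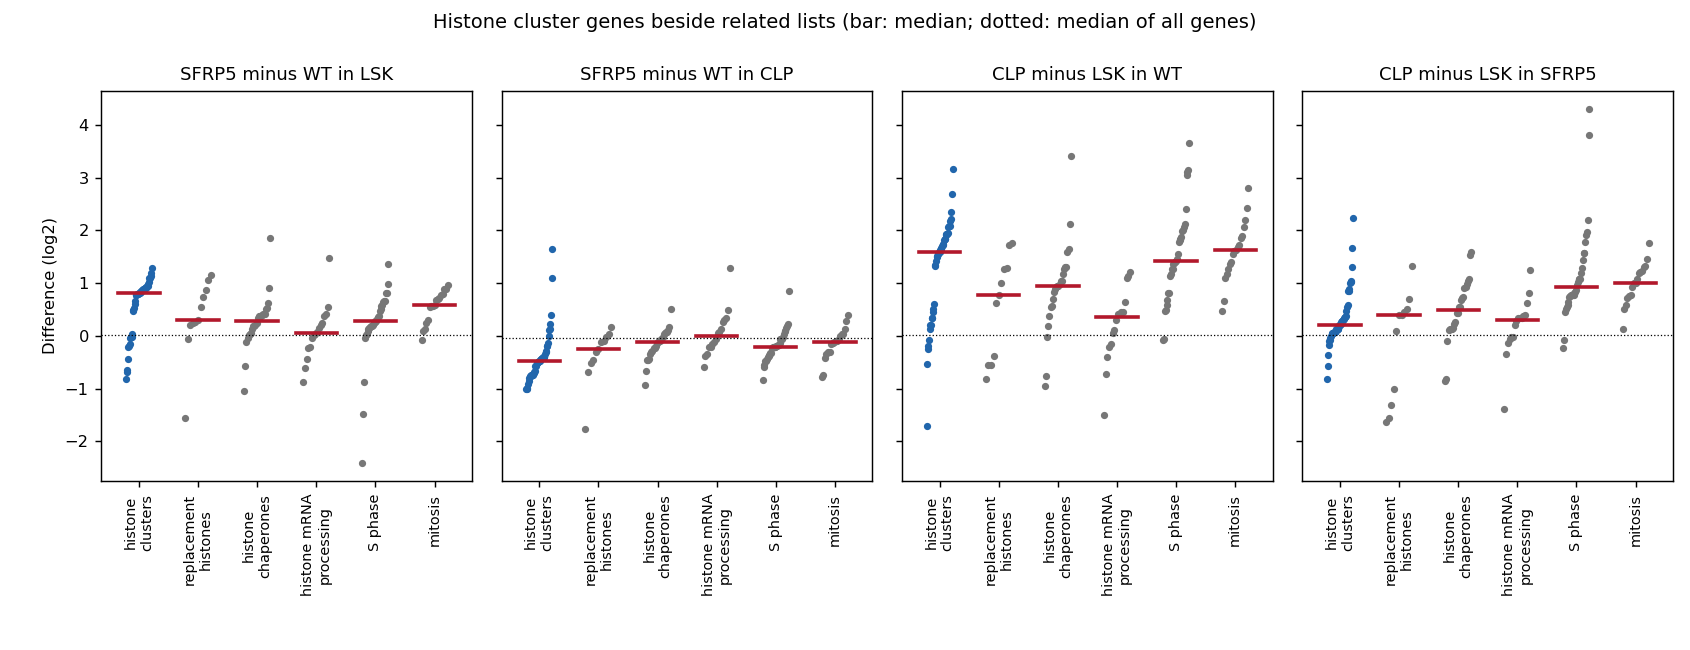
Log2 differences in the 4 comparisons for the histone cluster genes (blue) and 5 lists of related genes (grey), 1 point per gene well above background on both arrays; bars mark medians and the dotted line the median of all genes. In WT the histone genes (median 1.60) lie level with S phase (1.42) and mitosis (1.62), and in SFRP5 (0.20) they lie lower than both (0.92 and 1.0).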

How the data were processed

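The deposited scanner files give 1 intensity per spot (Cy3). Agilent Feature Extraction had subtracted background and detrended it, in version 10.10.1.1 as the file headers state and 10.10 as the submitters' processing notes do. Probes are annotated on mm9. Total RNA (6.1 ng) was amplified by a whole-transcriptome method and labelled, per the labels' protocols. The authors' deposited table holds a signal per probe, which is that intensity times 1 factor per array (4.91 to 6.42, computed here). The basis of these factors is not stated in the sources used. The deposited flag for well above background, a column of other content, was used as given, and the authors' deposited log2 ratios were not used. All 4 arrays lie on 1 slide with 1 scan day, so no slide block could be made, and array position and group cannot be told apart.

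The log2 of the processed intensity minus the 75th percentile of the array (227.2 to 290.9 in intensity units) was computed over 59305 spots outside the controls, leaving out 128 to 160 outlier-flagged spots per array. Spots of a probe were averaged, and the probe with the highest mean log2 signal stood for a gene. Well above background were 65.4% to 70.2% of probes, and 1 array per group limits the precision of every value. Symbols were updated through RefSeq (GRCm38.p6), which 30994 of 33325 probes with a symbol matched, and histone genes keep the array's names. With 1 array per group, differences were counted at 2-fold and no p-value was computed. The alternatives were normexp correction, quantile and cyclic loess scaling, the authors' signals, the mean of probes and other filters on dim probes. Normexp (limma 3.58.1, R 4.3.3, offset 50) used median signals, since the files hold no mean signal. The calculation was tested on simulated data. The histone genes and the lists were chosen with earlier results of these data known. The text names, per type, the 3 genes with the highest mean signal, all H1 genes, the 3 highest and lowest differences per comparison and the germ-line genes. From each list it names the 2 highest and 2 lowest as needed, with Slbp, Npat, Casp8ap2, Lsm10 and Lsm11. Other histone genes are named so that each of the 49 is accounted for.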

Additional observations from a re-analysis of the deposited data

Results flagged for a closer look

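The median difference between SFRP5 and WT over the histone cluster genes was 0.81 in LSK and -0.47 in CLP, opposite in sign between the sorts. Hist1h1a differed between the genotypes by 1.13 in LSK and -1.01 in CLP, Hist1h2ab by 1.18 and -0.98, and Hist1h2bb by 0.99 and -1.01. Hist1h2ac did so the other way round, at -0.65 in LSK and 1.64 in CLP. Between the sorts, Hist1h2ac differed by -1.70 in WT and 0.59 in SFRP5, and Hist1h2bb by 1.92 in WT and -0.076 in SFRP5. None of these contrasts between sorts or genotypes was tested, because each group has 1 array.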

How the results depend on the processing

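No paired analysis was possible because each group has 1 array, and no replicate could be left out. Of 84 alternative values for the medians and 2-fold counts of the histone cluster genes, 62 stayed within 0.0997 log2 (the spread between spots of a difference) or within 1.5 times the count, and no such median changed sign. Some of these could not move or hardly so. The filter on all 4 arrays left the same 43 genes between genotypes in LSK and between sorts in WT. Averaging probes affected only the 5 genes with several probes. The median in LSK between genotypes (0.81) was 0.67 under quantile scaling, 0.61 under cyclic loess and 0.68 with the authors' signals, and in CLP (-0.47) it was -0.31 under quantile scaling and -0.35 under loess. Between the sorts in WT (1.60) it was 1.17, 0.97 and 1.18 under quantile scaling, loess and the authors' signals, and 1.72 as the median of the 5 type medians. In SFRP5 (0.20) it was 0.079, 0.035 and 0.017 under the first 3. The 2-fold count between genotypes in LSK (6) was 3 with the authors' signals (4.8% of all genes higher and 9.56% lower, against 6.58% and 7.18%). In CLP (4) it was 1 under normexp (1.06% and 0.979%, against 4.26% and 4.3%), 2 under quantile scaling (4.13% and 3.85%), 2 under loess (4.54% and 3.98%), 2 with the authors' signals (5.27% and 3.5%), 2 over brighter genes (2.27% and 1.93%) and 7 with no filter on dim probes (6.94% and 8.38%). Between the sorts in SFRP5 (6) it was 1 under normexp (6.85% and 6.44%, against 11.5% and 11%), 2 over brighter genes (13.3% and 9.69%) and 3 without the germ-line and pseudogene members. Signs turned for the H2B median in LSK (-0.03 to 0.11 under quantile scaling, 0.13 under loess and 0.32 over brighter genes), the H4 median between sorts in SFRP5 (0.14 to -0.030, -0.070 and -0.049 under quantile scaling, loess and the authors' signals) and the H3 median there under loess (0.22 to -0.010). With the authors' signals the H2B median between sorts turned from 0.27 to -0.14 in WT and from 0.09 to -0.10 in SFRP5. The authors' signals also moved the median of all genes to -0.11 in LSK and 0.06 in CLP between genotypes, and to -0.40 in WT and -0.16 in SFRP5 between sorts. The authors' signals differ from the values used here by 1 factor per array, so they shift every gene of a comparison by the same amount. For the other settings the cause was not tested except where fewer genes entered. The type medians, the set without germ-line and pseudogene members and the count of every probe were chosen after seeing the data. Signals more than 16-fold below the 75th percentile limit Hist3h2bb-ps, Hist2h3c2-ps, Hist1h2bp, Hist3h2ba and Hist1h3a most.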
